A study of Caenorhabditis elegans with 4 samples.

Results

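The centre of chromosome V is the stretch from 5.90 Mb to below 16.55 Mb, and 693 of the 8121 listed RNA polymerase II (Pol II) regions of the early *Caenorhabditis elegans* embryo had their midpoint there. The remaining 656 regions of the chromosome lay on the arms, 343 on the left and 313 on the right. The regions came from chromatin immunoprecipitation and sequencing (ChIP-seq) of wild-type hermaphrodite strain N2 grown at 20 degrees Celsius, with 2 Pol II ChIP libraries and 2 input libraries of DNA that was not precipitated. All 4 libraries were whole embryos of the same genotype and stage, and the ChIP labels give the antibody as 8WG16, a monoclonal antibody against the repeated C-terminal tail of the largest Pol II subunit. The general protocol text describes an anti-GFP serum instead. The data used here were 1 list that combines the 4 libraries. Values below therefore carry no replicate error, and no difference between the centre and another stretch was tested.

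Pol II transcribes all protein-coding genes and many small RNA genes, and its largest subunit in the worm is AMA-1. The enzyme gathers at gene starts, travels along the gene body and slows past its end, so an enriched region can mark any of these steps. In the early embryo, transcription from the embryo's own genome starts while much of the RNA is still maternal. The centres of worm autosomes recombine little and hold many essential and broadly expressed genes. The arms recombine more, are richer in repeats and in methylated histone H3 lysine 9, and on chromosome V carry large families of chemoreceptor genes. Regions were not assigned to genes, because no annotation of their genome build, WormBase WS180, was used here.

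Each region has a q-value, the corrected p-value that the authors' peak caller gave to its ChIP reads against its input reads. The q-values could be turned back into whole read numbers for all 693 regions of the centre. Together these held 165082 ChIP and 69583 input reads, and the median region had 208 reads of both kinds. In whole embryos, binding in fewer cells and less binding per cell cannot be told apart. Input numbers are as tested by the authors and may have been scaled. Below, fold stands for ChIP reads divided by input reads of a region. Its 95% Clopper-Pearson interval takes these numbers as raw counts and covers counting error only. Intervals that do not overlap are therefore no test between regions. The same step showed that 18572 regions had been tested in the whole genome and that 8168 of them, or 44.0%, passed the q-value limit of 0.01. Of these, the 47 strongest ranks are absent from the list, and their chromosomes are unknown.

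The number of Pol II regions varied little over most of the centre and dropped near its upper end. The 10 complete 1 Mb bins held 67.4 ± 16.3 regions (SD over 10 bins) and 75.7 ± 11.5 kb of covered length. From 6 to 14 Mb the number per bin stayed between 60 and 77. The bin from 14 to 15 Mb held the most, with 89 regions over 90.8 kb, but which bin was fullest rested on the binning: it began at 6 Mb in bins of 0.5 Mb and at 9.5 Mb in 1 Mb bins shifted by 0.5 Mb. Its neighbour from 15 to 16 Mb held the fewest, with 27 regions over 48.8 kb. Number thus differed 3.30-fold between the fullest and the emptiest bin, and covered length 1.86-fold. The sparse stretch reached the boundary: from 15 to 16.55 Mb there were 42 regions, or 27.1 per Mb, against 71.9 ± 8.42 per bin in the other 9 complete bins.

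**Figure D1:**
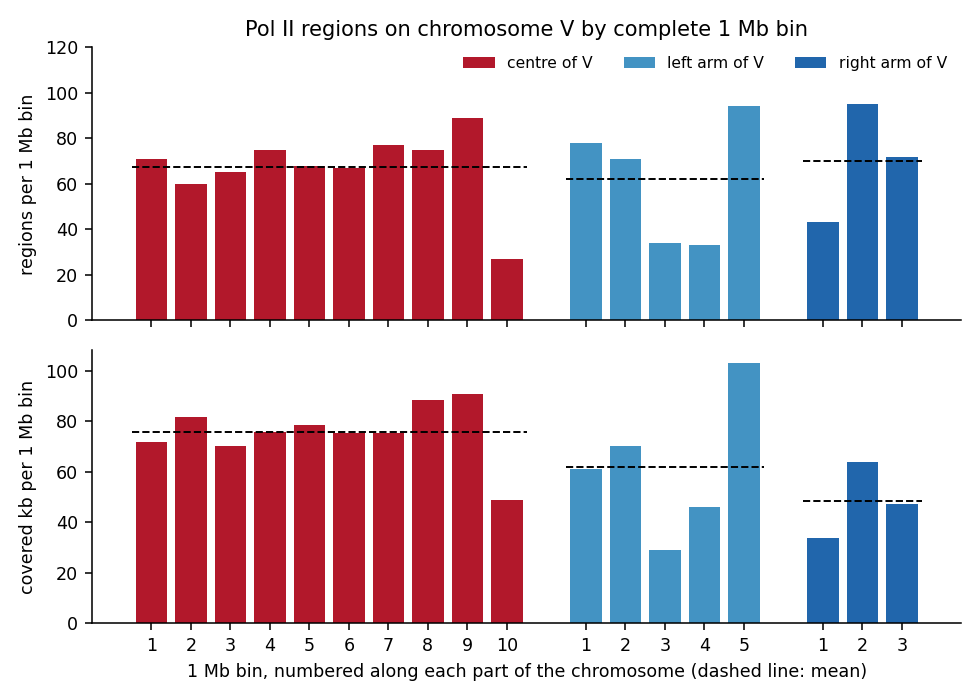
Number of Pol II regions (top) and length covered by them in kb (bottom) in each complete 1 Mb bin of the centre (10 bins, from 6 to 16 Mb), left arm (5 bins) and right arm (3 bins) of chromosome V, with the dashed line at each part's mean. The first 9 central bins hold 60 to 89 regions and the last holds 27, while bins of the left arm run from 33 to 94 and those of the right arm from 43 to 95.

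The few regions between 15 and 16 Mb were wide. Their median width was 968 bp (quartiles 610 and 2688.5), the largest of the 10 bins, and 5 of the 27 were at least 3 kb long. In the bin from 14 to 15 Mb the median width was 533 bp (quartiles 363 and 1069), the smallest of the 10. Median fold varied less along the centre, from 1.98 in the bins from 9 to 11 Mb to 2.39 in the bin from 11 to 12 Mb. The median −log10 q ran from 4.46 in the bin from 12 to 13 Mb to 7.75 in that from 11 to 12 Mb.

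Centre and arms of chromosome V had nearly the same number of regions per Mb, but the central regions covered more DNA. There were 65.1 regions per Mb in the centre, 58.2 on the left arm and 72.8 on the right arm. The 2 arms together had 64.4, and the order of centre and arms turned when both boundaries were moved outward by 0.5 Mb, with 63.6 per Mb in the centre and 66.2 on the arms. Covered length was 72.7 kb per Mb in the centre, 61.5 on the left arm and 56.0 on the right arm. Chromosomes I to IV together had 103 regions and 82.9 kb per Mb, and the X chromosome had 26.2 regions and 45.3 kb per Mb. Single bins overlapped widely: the arms held 65 ± 25.3 regions per complete bin (SD over 8 bins), against the central 67.4 ± 16.3 given above. Covered length overlapped too, with 56.8 ± 23.6 kb per arm bin (29.2 to 103) against 75.7 ± 11.5 kb per central bin (48.8 to 90.8).

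Regions of the centre were wider than those of the arms. Widths ran from 1 to 13431 bp, around a median of 714 bp (quartiles 390 and 1358 bp). The median was 600 bp on the left arm, 433 bp on the right arm and 459 bp on chromosomes I to IV. The X chromosome had wider regions than the centre, with a median of 1028 bp and 18.4% at 3 kb or more. Narrow regions in particular were fewer in the centre. Regions under 200 bp made up 9.52% of the central list (66 regions), against 20.7% on the left arm, 27.5% on the right arm and 24.0% on chromosomes I to IV. At the other end, 43 central regions, or 6.20%, were at least 3 kb wide, against 7.87% on the left arm, 5.11% on the right arm and 4.60% on chromosomes I to IV. These 43 regions held 27.3% of the covered length of the centre and 29.3% of its ChIP reads. When neighbours less than 1000 bp apart were joined, the median was 1172 bp in the centre and 1031 bp on the arms.

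The fold of ChIP over input was lower in the centre than on either arm. The median was 2.21 in the centre (quartiles 1.84 and 2.74), 2.47 on the left arm (2.05 and 3.31) and 3.10 on the right arm (2.39 and 4.2). Chromosomes I to IV had a median of 2.43, chromosome IV alone 2.30 and the X chromosome 1.82. The order of centre, left arm and right arm was the same in each of 5 width classes. Among regions of 200 to under 500 bp, for example, the median fold was 2.11 in the centre, 2.44 on the left arm and 2.74 on the right arm. Among those of 1000 to under 3000 bp it was 2.13, 2.34 and 3.34 in the same order. Within chromosome V input reads moved with this result: regions of the centre held 89.9 input reads per kb, those of the left arm 78.9 and those of the right arm 64.1. ChIP reads per kb differed less, with 213 in the centre, 206 on the left arm and 193 on the right arm. Chromosomes I to IV, however, had a higher fold than the centre at a higher input density, with 100 input and 250 ChIP reads per kb. The X chromosome, of lower fold, had 115 and 220. The part of the input in the lower fold was not tested. The q-value limit lets a region of low fold through only when its read number is large.

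**Figure D2:**
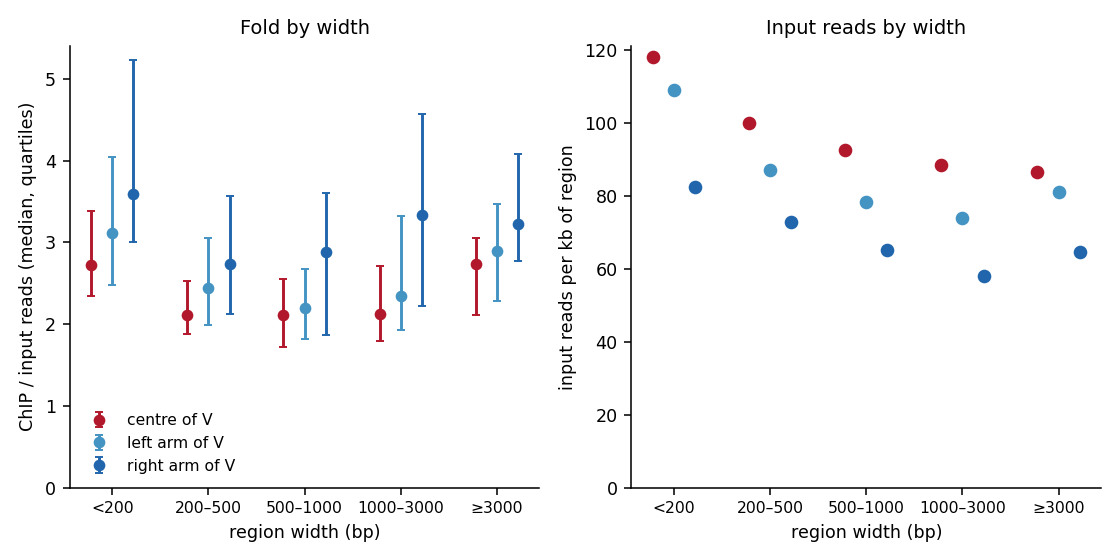
Left: median fold of ChIP over input reads with quartiles in 5 classes of region width for the centre, left arm and right arm of chromosome V. Right: input reads per kb of region in the same classes. In each class the centre has the lowest median fold and the highest input density of the 3 parts, for example 2.74, 2.90 and 3.23-fold at 86.5, 81.1 and 64.5 input reads per kb among regions of 3 kb or more.

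High folds were rare in the centre and rarer on the X chromosome. A fold of at least 5 was reached by 15 of the 693 regions, or 2.16%, against 4.96% on the left arm, 15% on the right arm and 5.47% on chromosomes I to IV. The share was 3.59% on chromosome IV alone and 0.434% on the X chromosome. For 5 of the 15 central regions the lower 95% limit was also at least 5. A fold of at least 2 was reached by 440 regions, or 63.5%, and for 159 of them the lower limit was at least 2 as well. The lower quartile of fold was 1.84 in the centre, 2.05 on the left arm, 2.39 on the right arm and 1.94 over all listed regions. The lowest fold in the centre was 1.33. The median region had 208 reads of both kinds in the centre, 154 on the left arm and 104 on the right arm. The part of read number in these shares was not tested.

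The median q-value was lower in the centre than on either arm, but hardly so among the stronger regions. The median −log10 q was 0.94 higher in the centre than on the arms together, and 0.02 higher when only the stronger 50% of the list was kept. The median q was 2.07e-06 in the centre, 1.74e-05 on the left arm and 1.95e-05 on the right arm. A q under 1e-10 was reached by 222 central regions, or 32.0%, against 30.3% on the left arm and 26.2% on the right arm. The share over all listed regions was 28.1%. A q under 1e-50 was reached by 42 central regions, or 6.06%, against 7.0% and 7.03% on the arms and 5.54% of all listed regions. At the weak end, 182 central regions, or 26.3%, had a q from 0.001 to 0.01, with a median width of 327 bp. The lower quartile of −log10 q was 2.92 in the centre and on the right arm, 2.94 on the left arm and 3.05 over all listed regions. Across the 693 regions, log10 width rose with −log10 q (rho = 0.74 by Spearman, r = 0.49 by Pearson), while the coefficients for width and fold were near 0 (rho = −0.07 and r = −0.13). Median fold was 2.73 under 200 bp, 2.11 to 2.13 in the 3 classes from 200 to under 3000 bp, and 2.74 at 3 kb or more, a course that such coefficients do not show. These regions share their libraries, and both measures rise with the reads of a region, so the coefficients are given as a description.

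**Figure D3:**
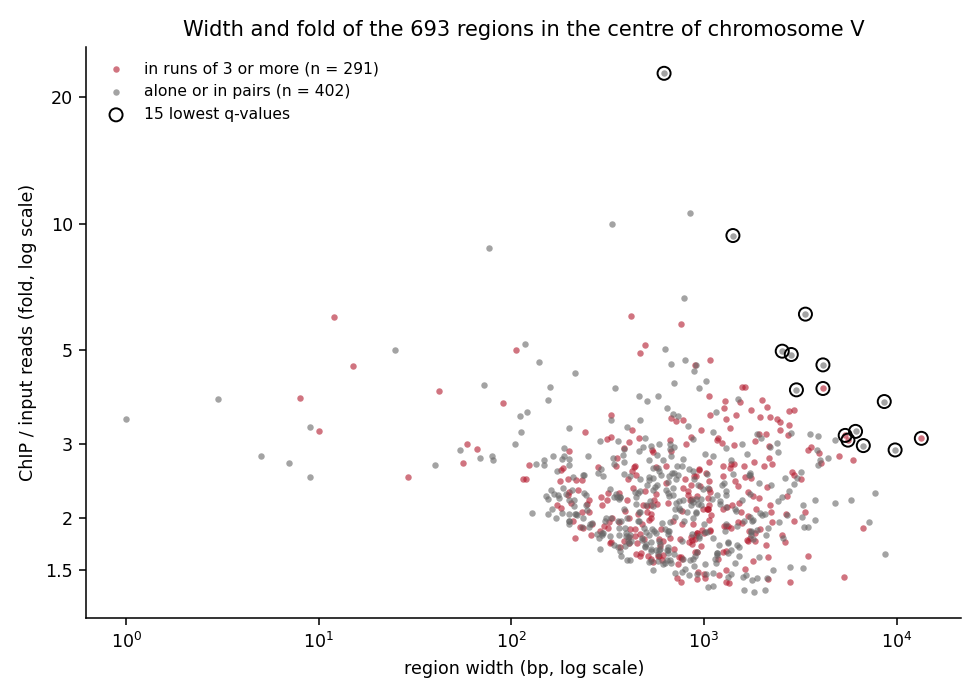
Width in bp and fold of ChIP over input reads (both axes logarithmic) for the 693 regions of the centre, in red for the 291 regions in runs of 3 or more, in grey for the 402 others, and circled for the 15 of lowest q-value. A fold of 3 or more is reached by 124 of the 693 regions, and of the 15 circled regions 11 are at least 3 kb wide.

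Most of the 15 regions of lowest q-value were long, 11 of them at least 3 kb, with folds from 2.90 to 22.8 over all 15. Among all regions that passed the q-value limit they had ranks 59 to 202, with the 47 ranks absent from the list counted. Their median width was 4142 bp and their median fold 4.03. They held 14.0% of the ChIP reads of the centre in 10% of its covered length. Any of the 47 absent ranks that lay in the centre would come before these 15. The first by q-value ran from V:8786270 to V:8794891 (8622 bp) at 2723 ChIP against 720 input reads (fold 3.78, 95% interval 3.48 to 4.11, q = 1.47e-269). Second was the widest region of the whole list, V:13164950-13178380 (13431 bp), at 3292 ChIP against 1066 input reads (fold 3.09, 2.88 to 3.31, q = 7.12e-259). Both were thus long stretches with about 3 to 4 ChIP reads for each input read, and their intervals did not overlap.

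The third and the fifth by q-value were shorter and denser. V:6097161-6101302 (4142 bp) held 1981 ChIP reads, or 478 per kb, and 429 input reads (fold 4.62, 4.16 to 5.14). V:8038197-8041033 (2837 bp) held 1173 and 240 reads, a fold of 4.89 (4.25 to 5.64). Between them in order came V:14500606-14510421 (9816 bp), with 2565 and 883 reads and a fold of 2.90 (2.69 to 3.14). The sixth, V:14008192-14012333, had the same width as the third, 4142 bp, at 1360 and 335 reads and a fold of 4.06 (3.60 to 4.59).

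Ranks 8 to 10 within the centre were again long: V:10711310-10718021 (6712 bp, fold 2.97), V:13799039-13805154 (6116 bp, fold 3.21) and V:14828100-14833684 (5585 bp, fold 3.06). The last 4 of the 15 were V:16365517-16368876 (3360 bp, fold 6.10), V:12352877-12355422 (2546 bp, fold 4.98), V:10235364-10238380 (3017 bp, fold 4.03) and V:14781975-14787378 (5404 bp, fold 3.14). Of these, V:16365517-16368876 lay in the sparse upper end of the centre and had the lowest q-value of the central regions above 16 Mb. The 3 complete bins without any of the 15 regions were those that start at 7, 11 and 15 Mb. In the bins from 7 to 8 and from 11 to 12 Mb the strongest were V:7828144-7835854 (7711 bp, 1634 ChIP and 713 input reads, fold 2.29, 2.10 to 2.51) and V:11342330-11347129 (4800 bp, 1235 and 403 reads, fold 3.06, 2.74 to 3.44). The bin from 15 to 16 Mb was led by V:14998435-15002287 (3853 bp, fold 2.90), whose midpoint lies just above 15 Mb.

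**Figure D4:**
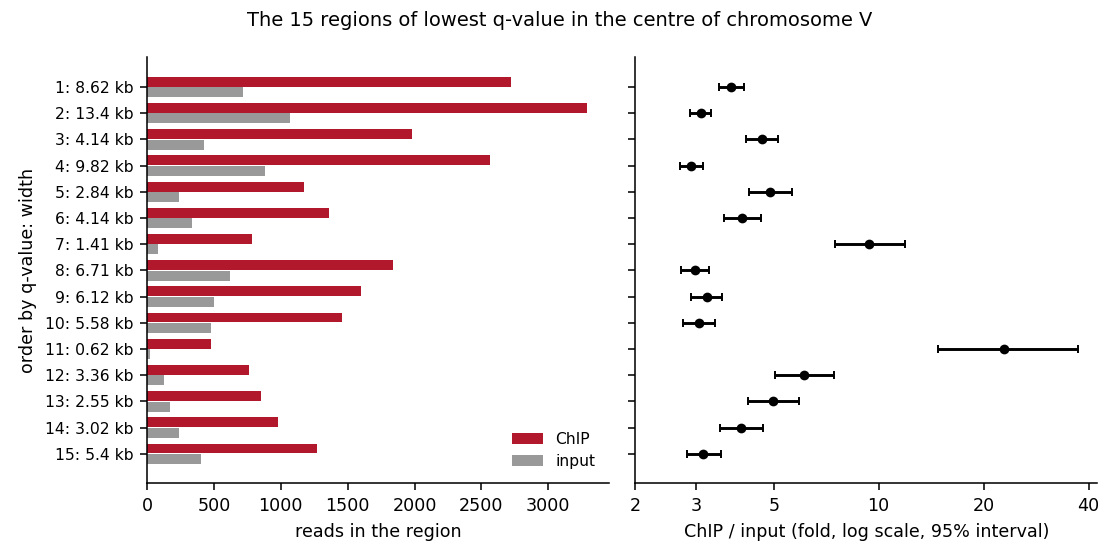
ChIP and input reads (left) and fold with its 95% interval on a log axis (right) for the 15 central regions of lowest q-value, in order from the top and labelled with their width. Region 11, of 0.620 kb, stands apart at a fold of 22.8, and region 7, of 1.41 kb, follows at 9.38, while the widest region, the second, has the most ChIP reads at a fold of 3.09.

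By the lower limit of the fold, short regions led. First was V:9088637-9089256, 620 bp long, which held 479 ChIP against 21 input reads (fold 22.8, 14.8 to 37.2), and at 773 ChIP reads per kb it was the densest of the 10 regions with the highest lower limits. The next region on the chromosome, V:9090911-9091754 (844 bp), began 1654 bp further on and came second, with 412 and 39 reads and a fold of 10.6 (7.60 to 15.1). The third was V:8898174-8899585 (1412 bp, 788 and 84 reads, fold 9.38, 7.48 to 11.9). It was preceded at 424 bp by the sixth, V:8897418-8897749 (332 bp, 80 and 8 reads, fold 10, 4.84 to 24.0). With these neighbours, 4 of the 10 regions lay within 194 kb, from V:8897418 to V:9091754, a stretch chosen after the values were seen. The 6 other regions listed there had folds of 1.45 to 4.62, with a median of 1.93, so the high folds were not shared by all of its regions.

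The remaining regions of high fold were scattered. The fourth was V:14028000-14028785 (786 bp, 466 and 70 reads, fold 6.66, 5.17 to 8.69), and seventh was V:9339993-9340752 (760 bp, 358 and 62 reads, fold 5.77, 4.4 to 7.69). Of the 10 regions, 6 were also among the 15 of lowest q-value, and 2 of the 10 were at least 3 kb wide. Conversely, width alone did not bring a high fold. V:15501663-15510348, the third widest of the centre at 8686 bp, held 1401 ChIP against 852 input reads (fold 1.64, 1.51 to 1.79) and ranked 82nd by q-value within the centre.

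Close neighbours were common. Of the 692 distances between neighbours in the centre, 220 (31.8%) were under 500 bp and 308 (44.5%) under 1000 bp, and the smallest was 200 bp. The median distance was 1404.5 bp and the upper quartile 15034.2 bp. Joined at gaps under 1000 bp, the 693 regions formed 385 units: 228 single regions, 87 pairs and 70 runs of 3 or more. The runs held 291 regions, or 42.0%, against 48.4% on the left arm, 48.6% on the right arm and 39.2% on chromosomes I to IV. The share of the centre rests on the chosen gap, with 26.6% at 500 bp and 58.2% at 2000 bp. Whether a run holds several sites or 1 broken stretch was not tested.

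Regions in runs were wider than single ones and had a similar fold. The median width was 868 bp in runs, 692 bp in pairs and 632 bp when alone. The median fold was 2.21, 2.16 and 2.23 in the same order. Runs were frequent from 14 to 15 Mb, where 55 of 89 regions (61.8%) belonged to one, and infrequent from 15 to 16 Mb, with 6 of 27 (22.2%).

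The run with most regions, 11, lay from V:6473301 to V:6490044 and covered 12 of its 16.7 kb. Its summed fold was 2.78, from 2987 ChIP against 1073 input reads. Its first 6 regions were narrow, from 115 to 702 bp, with folds of 1.69 to 2.89. They were followed by a region of 5021 bp with a fold of 2.81 (2.51 to 3.15), then by regions of 905, 2472 and 1465 bp with folds of 2.52, 3.38 and 3.52. This run lay in the fullest 100 kb window of the centre, 6400001 to 6500000, which held 24 regions.

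The second run, with 9 regions from V:14111037 to V:14124000, was more even. Its 13.0 kb were covered to 80.3%, and the folds of its regions ran from 2.40 to 3.9, with a summed fold of 3.05. One of them was only 8 bp wide, with 27 ChIP and 7 input reads (fold 3.86, 1.64 to 10.5). In the third run, the longer of 2 with 8 regions, from V:13158383 to V:13182231, the widest region of the list took up 13431 of 23849 bp. The 3 regions before it had folds of 1.67, 1.82 and 2.71, and the one just after it had the lowest of the run, at 1.5 (1.20 to 1.88). The last 3 reached 3.52, 2.90 and 2.88. This run also covered the most DNA, 21.2 kb. By that measure it was followed by a pair from V:15501663 to V:15514167, which covered 12.2 kb. In that pair a region of 8686 bp at a fold of 1.64 lay 256 bp before one of 3563 bp at 3.16 (2.70 to 3.71), and the 2 intervals did not overlap.

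**Figure D5:**
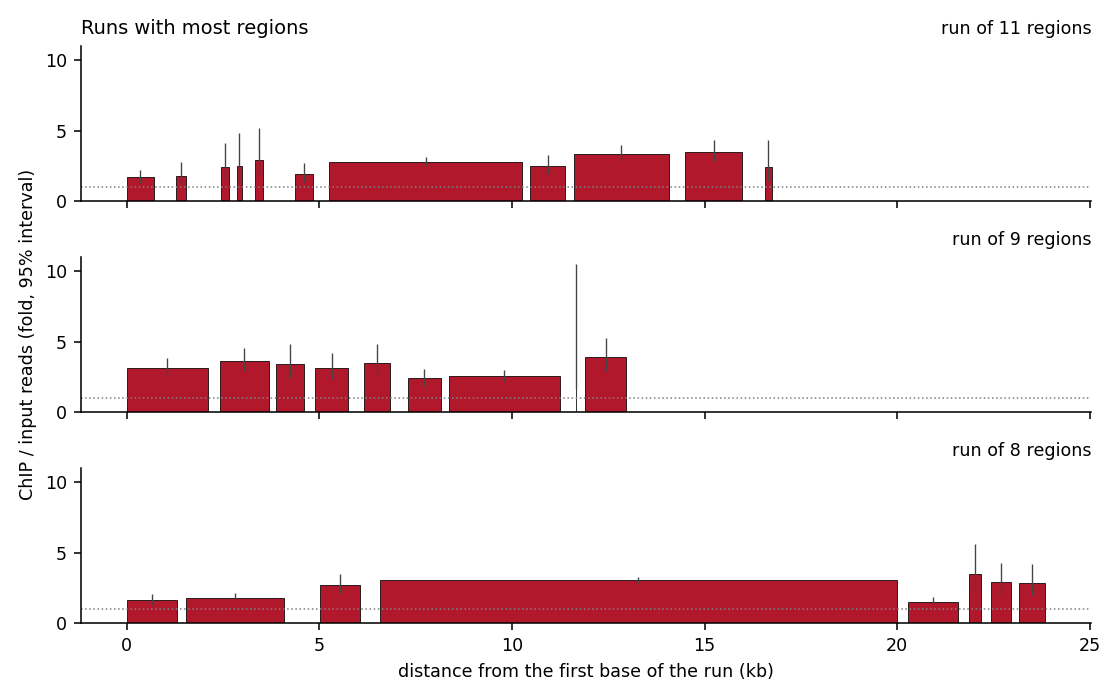
The 3 runs with most regions, drawn to scale from the first base of each run in kb, with bar width as region width, bar height as fold of ChIP over input reads and the thin line as its 95% interval (dotted line: equal ChIP and input reads). In the third run the region of 13431 bp, at a fold of 3.09, has the neighbour of 1.5 at its end.

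Long stretches of the centre held no listed region. The longest ran for 201 kb after V:15191744, to the next region at V:15392255. It was followed by 197 kb after V:16028337, in the same sparse upper end, and by 171 kb after V:7242664. The bin from 7 to 8 Mb, which holds this gap, also held a gap of 137 kb after V:7595644, and with 60 regions it had the fewest of the complete bins other than that from 15 to 16 Mb. Gaps over 50 kb numbered 63 and together made up 52.7% of the length of the centre. Of 106 windows of 100 kb, 9 held no midpoint of a region, and 5 of these 9 lay among the 15 windows above 15 Mb. The absence of a region shows only that none passed the q-value limit or that it was among the 47 absent ranks.

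Very short regions were few, as on the X chromosome, where 0.868% were under 20 bp. In the centre 10 of 693 regions, or 1.44%, were under 20 bp, against 3.50% on the left arm and 4.15% on the right arm. They had 28 to 42 reads each and folds of 2.50 to 6.0, and 6 of the 10 had a neighbour within 1000 bp. Most central regions had one too: of all 693, 228 (32.9%) had none.

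At the edges of the centre, the first 2 regions inside the lower boundary were V:5942841-5944809 (1969 bp, fold 3.09, q = 1.66e-30) and V:5959804-5960584 (781 bp, fold 2.21). The last 2 outside it were V:5839974-5845084 (5111 bp, fold 2.32, q = 5.56e-53) and V:5845639-5846310 (672 bp, fold 1.53). At the upper boundary the last 2 inside were 147 and 117 bp wide, with folds of 2.75 and 5.17. V:16549671-16550619 (949 bp, fold 3.18) spans the boundary and counts as outside by its midpoint, and the next, V:16592227-16592536, had a fold of 2.29.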

How the data were processed

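The authors deposited 1 combined list of regions for 2 ChIP and 2 input libraries. Per the file headers, coordinates are those of WormBase WS180, 1-based, and the source column names PeakSeq, which sets the ChIP reads of a region against its input reads; the deposited value is its q-value. Not given in the sources used here are PeakSeq's version and settings, the read mapper, the library depths and how replicates were combined. Whether the 2 replicates came from separate cultures is not in the labels.

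Read numbers were recovered from the q-values. Neighbouring lines of equal p differ in q by the ratio of their ranks, which 2665 pairs placed 47 ranks after the true start. With 18572 tested regions, q times rank over that total equalled an exact binomial tail (probability 0.5) of exactly 1 pair of read numbers for 8116 of 8121 regions, within 1e-09 in ln p, and for none at a total 1 higher or lower. The steps were also run on simulated data built by the same rule. Such a run checks the steps, not how PeakSeq's q-values arose. Arm lengths run from the first to the last listed base of V, 5389 to 20846515. Gaps count the bases between regions, and bins and windows count midpoints.

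Regions named are the 15 of lowest q, the 5 widest, the 10 of highest lower fold limit, the strongest of each bin, the 3 longest runs by number and by covered length, the 3 longest gaps, and the 2 on each side of each boundary. The members, lists and rules were chosen with earlier results of these data known. No test between stretches was made, since neither regions nor bins are replicates. Python 3.11.15, numpy 2.4.6, pandas 2.3.3, scipy 1.17.1 and matplotlib 3.10.9 were used.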

Additional observations from a re-analysis of the deposited data

How the results depend on the processing

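Of 32 alternatives to 7 results on the centre, 18 left the value within 1.5 times (for shares, within the exact 95% interval of the share) and in the same direction, 13 moved it further, and 1 reversed it. These counts rest partly on the limits used. The width and fold ratios lie near 1, where 1.5 times is wide, and a width ratio of 1.14 counted as unchanged. Changing the gap or width limit that defines a share was bound to move it. The interval of a share also treats regions as independent. The difference in regions per Mb, centre minus arms, was 0.701. It turned to −2.55 with both boundaries moved outward by 0.5 Mb, and was 5.48 with both moved inward, 4.62 in the stronger 50% of the list, 3.18 with neighbours within 1000 bp merged and 2.21 without regions under 20 bp. The direction of this difference thus rests on where the boundaries are set. The difference in median −log10 q was 0.94, and became 0.02 in the stronger 50% of the list and 2.04 after merging. Covered length, median width and median fold kept their direction under each of the 5 alternatives run, with differences of 10 to 19.4 kb per Mb, width ratios of 1.14 to 1.49 and fold ratios of 0.789 to 0.858. The share of regions in runs, 42.0%, was 26.6% at 500 bp, 58.2% at 2000 bp and 25.7% in the stronger 50% of the list. The share of 3 kb or more, 6.20%, was 13.9% at 2 kb, 2.16% at 5 kb, 11.6% in the stronger 50%, which holds all 43 such regions, and 27.8% after merging. The emptiest bin began at 15 or 15.5 Mb at each bin setting, whereas the fullest began at 14 Mb, at 6 Mb in 0.5 Mb bins and at 9.5 Mb in bins shifted by 0.5 Mb.

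No paired analysis was possible because both replicates are pooled in the single list, which also prevents leaving out either of them. Library depth is unknown, and regions that missed the q-value limit are not listed.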
